A study of Saccharomyces cerevisiae with 8 samples.

Results

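The results describe how the transcripts of the CRN strain of *Saccharomyces cerevisiae* differed between a medium with excess manganese and a control medium. The members of this comparison are 4 of the 8 RNA sequencing libraries of the study, chosen by strain and medium from the labels, and 5778 of the 7126 counted genes, which had at least 2 CPM, the usual depth-scaled count, in at least 4 of the 8 libraries. CRN is a MATa ade2 his3 ura3 strain in which PPN1 is replaced by a marker (ppn1delta::CgTRP1), so the manganese cultures and their controls both lack this polyphosphatase, although a genotype label lists CRN as WT. It is also the parent of the other strain, CRN/PPN1, which carries PPN1 on the vector pMB1/PPN1 Sc. The manganese cultures of CRN grew for 40 h in YPD with 14 mM KH2PO4 and 5 mM MnSO4, against 12 h in the same medium without MnSO4 for the control cultures. The CRN/PPN1 cultures used for comparison grew for 16 h with 5 mM MnSO4 and for 12 h in the control medium. The protocol states logarithmic growth for all of them, and each group had 2 libraries. By the study's methods the replicates of a medium came from a pair of cultivations run at the same time, so the p-values measure the spread between such cultures. Medium and growth time changed together in CRN, and their shares in any difference cannot be told apart.

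Manganese is a cofactor of many enzymes and becomes toxic in excess. Yeast takes it up through Nramp transporters of the Smf family and, bound to phosphate, through the phosphate transporter Pho84, and moves it into the Golgi and the vacuole through Pmr1 and Ccc1. Polyphosphate, a chain of phosphate residues made at the vacuole membrane by the VTC complex and cut by polyphosphatases such as Ppn1, is a polyanion that binds metal ions. Slow growth and stress in yeast go with less protein kinase A activity, which lets the factors Msn2 and Msn4 bind stress response elements (STRE) in promoters and lowers the transcription of ribosomal protein genes. The factor Aft1 turns on iron uptake genes when iron is short, and Pho4 turns on phosphate genes when phosphate is short.

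The 4 libraries held 3197494 and 3579469 gene counts for CRN in manganese and 3181290 and 2737494 for CRN in control medium, and replicates differed by more than counting noise (chi-square per gene 14.1 in manganese and 18.0 in control medium). PPN1 had 39 and 3 counts in manganese and 9 and 7 in control medium, against 22035 and 25525 counts in the 2 CRN/PPN1 manganese libraries and 7216 and 7027 in their controls. Of the MATa markers, MFA1, MFA2, STE2, STE6, BAR1 and AGA2 were present in all 4 libraries, and all but BAR1 were called down in manganese, with log2 fold changes of -3.96 for MFA1, -5.04 for MFA2, -2.57 for STE2, -1.05 for STE6 and -4.09 for AGA2. The MATalpha gene STE3 had 92 and 74 counts in manganese against 1 and 5 in control medium and was called up (log2 fold change 3.09, edgeR adjusted p = 0.00533), and MF(ALPHA)1 had 28 and 35 against 6 and 2 counts and was not called. The most abundant 100 genes took 25.5% and 23.7% of the counts in manganese, against 57.5% and 51.2% in control medium. Reads that did not map made up 3.17% and 2.61% in manganese and 1.07% and 1.19% in control medium. The part of these shifts in the gene-level results was not tested.

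Levels are given as CPM after scaling by edgeR's TMM method, which makes the middle of the genes equal between libraries, and a call, up or down, required both an adjusted p no larger than 0.05 and a change of 2-fold or more (1 on the log2 scale). Of the 5778 genes, 48.7% were called, 24.7% up in manganese and 24.0% down, and for 83.9% the levels of the 2 manganese libraries did not overlap those of the 2 control libraries. A group of genes is therefore read against these shares. When libraries were instead scaled to their totals, the middle of all genes moved up by 1.48 on the log2 scale, with 63.7% then called up and 10.5% down. After the trend of the change on coding length was taken out, 23.0% of the 5537 genes with a known length were called up and 18.0% down. All changes below are relative to the TMM scale unless another is named.

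The 8 genes with the largest rises were INO1, YBR284W, MCH2, ADR1, RNR3, ULI1, SGA1 and FIT3. INO1 (YJL153C) had 2323 and 2208 normalized CPM in manganese, against 11.8 and 15.2 in control medium. INO1 encodes the inositol-3-phosphate synthase that starts inositol synthesis, and its 167-fold rise, log2 fold change 7.38, SE 0.27, edgeR adjusted p = 3.20e-10, was the largest among genes with over 3 counts in all 4 libraries and 100 or more normalized counts on average. YBR284W had 893 and 807 normalized CPM in manganese, against 6.81 and 7.87 in control medium. This open reading frame rose 115-fold, log2 fold change 6.84, SE 0.31, edgeR adjusted p = 8.54e-10. MCH2 (YKL221W) had 366 and 377 normalized CPM in manganese, against 3.10 and 3.37 in control medium. MCH2, which encodes a membrane protein related to monocarboxylate permeases, rose 113-fold (log2 fold change 6.82, SE 0.45, edgeR adjusted p = 5.51e-09). ADR1, the activator of glucose-repressed genes of fat and alcohol use, followed. ADR1 (YDR216W) had 849.6 and 917 normalized CPM in manganese, against 9.91 and 10.7 in control medium. It rose 85.4-fold (log2 fold change 6.42, SE 0.28, edgeR adjusted p = 8.40e-10). RNR3 (YIL066C) had 235 and 227 normalized CPM in manganese, against 3.10 and 2.81 in control medium. RNR3, a minor large subunit of ribonucleotide reductase, thus differed 77.3-fold. FIT3 (YOR383C) had 1534 and 1116 normalized CPM in manganese, against 29.1 and 21.4 in control medium. ULI1 (YFR026C) had 613 and 802 normalized CPM in manganese, against 14.2 and 8.43 in control medium. ULI1 (log2 fold change 5.97), SGA1 (5.88), a glycogen-cutting enzyme, and FIT3 (5.72), a wall protein of iron uptake, complete the 8 largest rises. In all of these genes each manganese library lay above both control libraries by more than an order of magnitude.

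Some genes were at or under a floor of 3 counts in each control library, and 71 of these were called up, so that their fold change is a lower bound. Against this floor, EMA35 was at least 140-fold higher in manganese, PHM7 at least 92.2-fold, SPS100, a spore wall gene, at least 65.0-fold, and HXT5, a hexose transporter of slow-growing cells, at least 62.2-fold. PHM7 had 831 and 963 counts in manganese and none in either control library. EMA35 overlaps the open reading frame YCR099C on the same strand, and reads that fit both were left uncounted. Of the genes called down, 17 were at or under the floor in each manganese library.

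The 8 genes with the largest falls were SPL2, HTB2, snR10, PHM6, RPS22A, HTA2, RPL40B and snR63. SPL2 (YHR136C) had 17.1 and 8.40 normalized CPM in manganese, against 1477 and 812 in control medium. SPL2, whose product restrains low-affinity phosphate uptake, was 90.1-fold lower (log2 fold change -6.49, SE 0.37, edgeR adjusted p = 1.84e-09). HTB2 (YBL002W) had 24.3 and 23.3 normalized CPM in manganese, against 2495 and 1647 in control medium. HTA2 (YBL003C) had 26.3 and 39.6 normalized CPM in manganese, against 2048 and 1645 in control medium. These genes encode histones H2B and H2A and were 86.8-fold and 55.9-fold lower. snR10 had 1.17 and 1.89 normalized CPM in manganese, against 148 and 103 in control medium. This RNA guides pseudouridine formation in ribosomal RNA, and it was 79.2-fold lower. PHM6, another phosphate-regulated gene (64.6-fold), RPS22A (59.2-fold) and RPL40B (53.6-fold), which encode ribosomal proteins, and snR63 (51.4-fold) complete the 8 largest falls. Each manganese library lay below both control libraries in all 8. Near-identical paralogs exist for the ribosomal protein and histone genes, and reads with several possible places were left uncounted, so the split between such copies is uncertain.

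**Figure D1:**
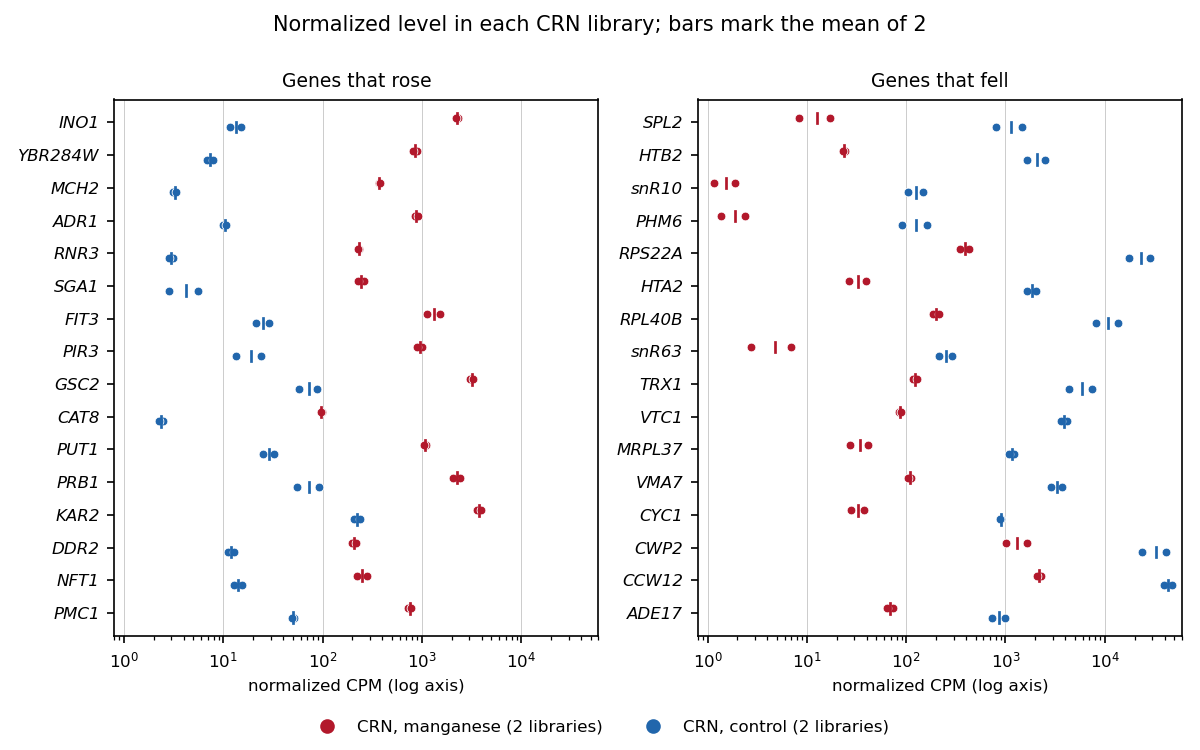
Normalized CPM (log axis) of 16 genes that rose and 16 that fell in CRN, with each point a library and each bar the mean of 2, manganese in red and control in blue. The groups do not overlap for any gene shown, from INO1 at 2323 and 2208 against 11.8 and 15.2 normalized CPM to CCW12 at 2293 and 2092 against 47529 and 39656.

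Promoters of the genes on which the phosphate, iron and stress results turn are shown here for the matches they hold. The sequences are 200-base stretches of the R64 genome from RefSeq, read toward the gene from within the 500 bases before the start codon, with matches in capitals. For the Pho4 site the letters CACGTG, which read the same on both strands, and CACGTT or its reverse AACGTG were searched. For Aft1 and Aft2 the letters were TGCACCC or GGGTGCA, and for STRE they were CCCCT or AGGGG. SPL2, PHM6 and PHO84 fell, and PHO89, FIT3, FIT1, DDR2 and SGA1 rose.
SPL2, chrVIII:375101-375300, minus strand: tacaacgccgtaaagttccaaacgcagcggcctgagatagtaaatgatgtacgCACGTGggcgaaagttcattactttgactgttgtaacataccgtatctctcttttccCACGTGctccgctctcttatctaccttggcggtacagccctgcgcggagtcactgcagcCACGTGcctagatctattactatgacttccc
PHM6, chrIV:1022556-1022755, minus strand: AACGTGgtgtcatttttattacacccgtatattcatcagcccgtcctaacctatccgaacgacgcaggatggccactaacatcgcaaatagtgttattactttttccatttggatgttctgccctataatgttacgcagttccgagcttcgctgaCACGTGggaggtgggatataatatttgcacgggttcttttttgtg
PHO84, chrXIII:26037-26236, minus strand: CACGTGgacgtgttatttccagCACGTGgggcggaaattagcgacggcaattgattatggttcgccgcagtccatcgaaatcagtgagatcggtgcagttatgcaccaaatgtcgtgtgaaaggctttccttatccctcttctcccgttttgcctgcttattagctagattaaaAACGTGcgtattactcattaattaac
PHO89, chrII:798786-798985, minus strand: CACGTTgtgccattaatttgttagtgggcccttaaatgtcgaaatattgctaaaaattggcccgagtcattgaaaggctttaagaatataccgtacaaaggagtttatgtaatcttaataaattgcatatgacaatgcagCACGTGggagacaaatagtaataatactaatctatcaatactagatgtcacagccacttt
FIT3, chrXV:1061141-1061340, minus strand: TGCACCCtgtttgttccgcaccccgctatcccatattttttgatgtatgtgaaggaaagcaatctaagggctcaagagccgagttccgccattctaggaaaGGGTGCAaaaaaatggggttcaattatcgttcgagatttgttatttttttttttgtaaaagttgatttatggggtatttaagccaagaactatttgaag
FIT1, chrIV:1504985-1505184, minus strand: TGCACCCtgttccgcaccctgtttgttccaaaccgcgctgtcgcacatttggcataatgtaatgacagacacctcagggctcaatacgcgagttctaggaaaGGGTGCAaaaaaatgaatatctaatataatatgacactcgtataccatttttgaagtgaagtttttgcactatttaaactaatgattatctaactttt
DDR2, chrXV:231804-232003, minus strand: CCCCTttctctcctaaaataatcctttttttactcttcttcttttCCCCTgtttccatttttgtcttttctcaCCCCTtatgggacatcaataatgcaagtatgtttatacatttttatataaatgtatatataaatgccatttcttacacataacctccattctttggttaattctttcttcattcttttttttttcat
SGA1, chrIX:177575-177774, plus strand: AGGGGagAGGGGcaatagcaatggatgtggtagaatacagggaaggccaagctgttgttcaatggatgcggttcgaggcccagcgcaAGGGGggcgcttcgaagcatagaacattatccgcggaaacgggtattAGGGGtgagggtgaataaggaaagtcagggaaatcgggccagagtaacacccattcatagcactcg

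SPL2 held 4 Pho4 matches in its 500 bases, 3 of them in the stretch shown, PHO84 held 3, and PHM6 and PHO89 held 2 each. The phosphate gene that rose, PHO89, thus carried the same kind of match as those that fell. Of all 5531 tested genes with a window, 21.4% held a Pho4 match, against 20.2% of the genes called up and 21.8% of those called down. The Aft match, which was added to the search after the iron genes had been seen to rise, was in 2.37% of all windows, in 4.06% of the windows of genes called up, in 6.30% of those of genes called up at least 4-fold and in 1.57% of those of genes called down. Among the 29 iron uptake genes tested it was in 20. These were listed as an iron uptake regulon, and those called up also count in the shares above. The shares are therefore not independent of each other. STRE matches were in 34.4% of all windows, in 42.8% for genes called up, in 47.0% for genes called up at least 4-fold and in 31.0% for genes called down. They were in 17 of 22 trehalose and glycogen genes and in 21 of 28 stationary phase genes, while SSA3, HSP30 and GSC2, which rose strongly, held none in these 500 bases. A match is a string of letters and was not tested for binding.

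**Figure D2:**
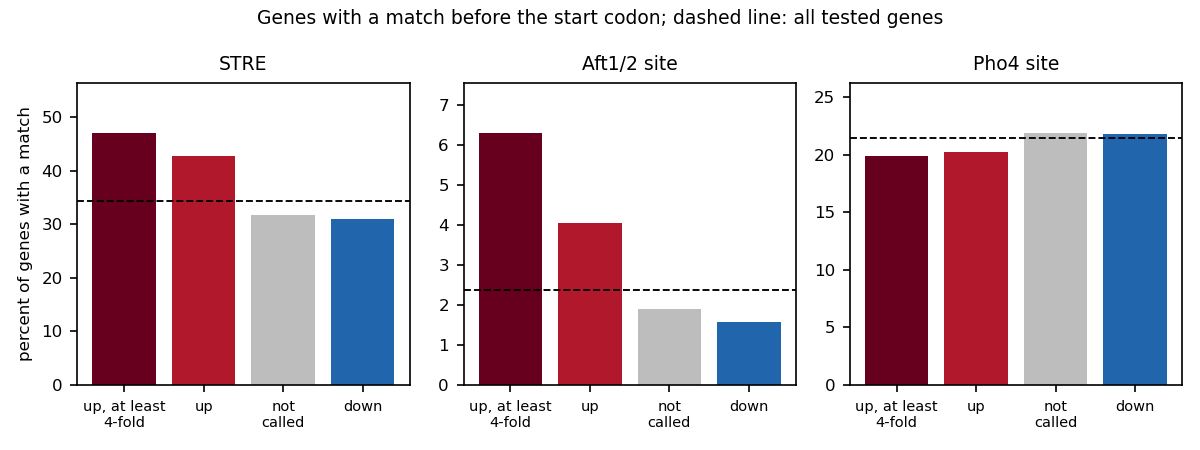
Percent of genes with at least 1 match to the STRE, the Aft1/2 site or the Pho4 site in the 500 bases before the start codon, for genes called up at least 4-fold, called up, not called and called down in CRN in manganese. The dashed line is the share of all tested genes, at 34.4%, 2.37% and 21.4%, and the STRE and Aft1/2 bars are tallest for genes called up at least 4-fold.

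**Figure D3:**
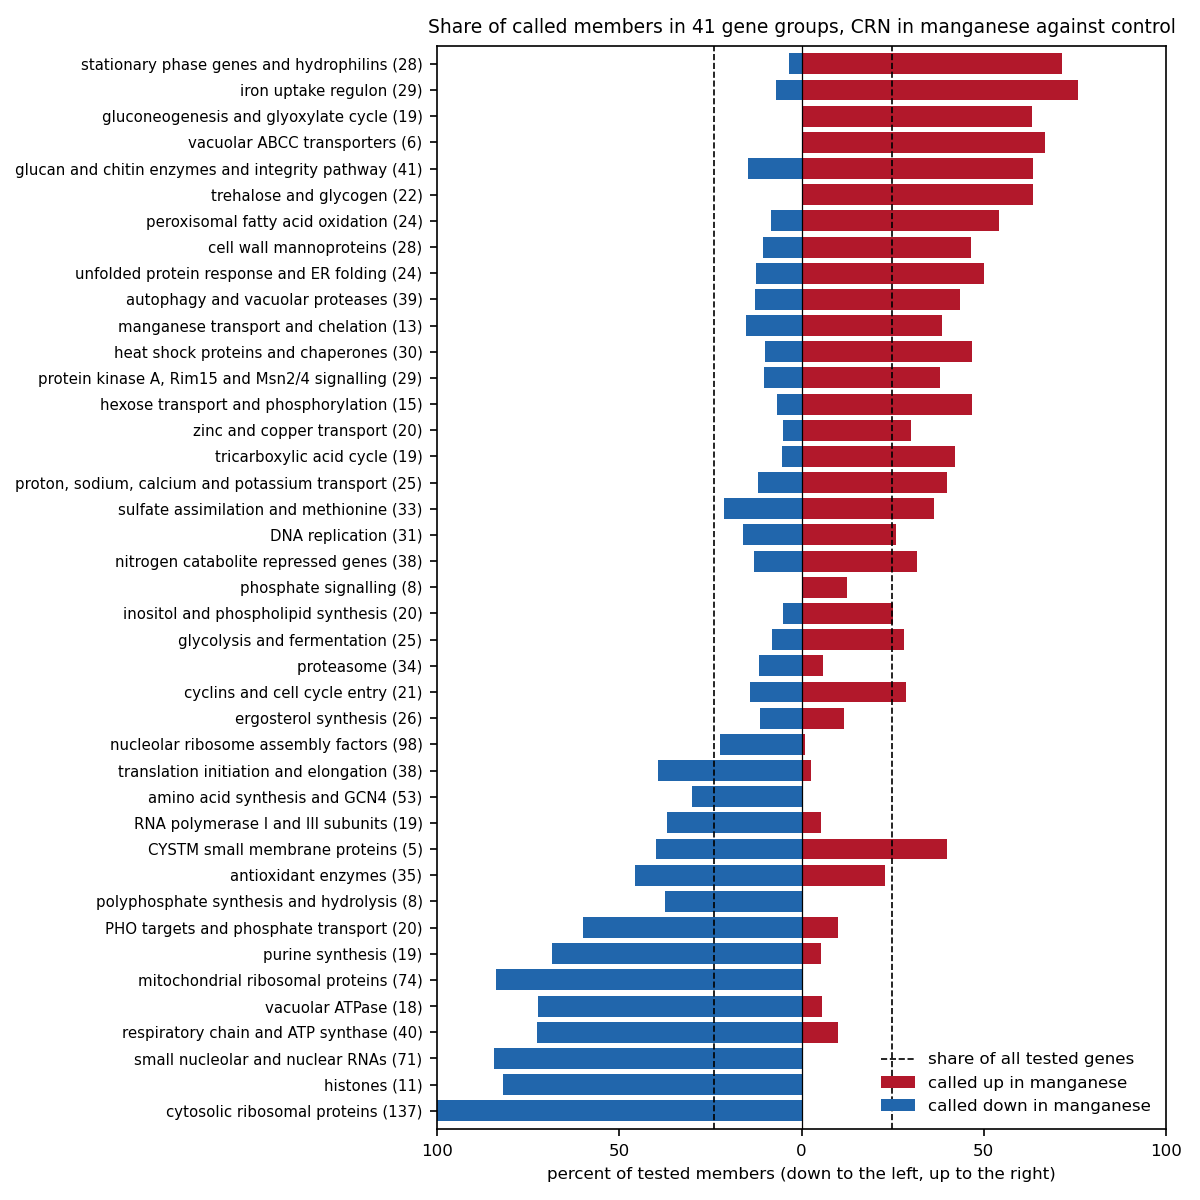
Percent of tested members called up (red, right) or called down (blue, left) in manganese in 41 gene groups, ordered by median log2 fold change, with the number tested in brackets. Dashed lines mark the shares of all 5778 genes, 24.7% up and 24.0% down, which the iron uptake and stationary phase groups pass on the right and the ribosomal protein groups on the left.

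Iron uptake genes rose together. Of 29 genes of this group that were tested, 22 rose and 2 fell, against 24.7% and 24.0% of all genes, and the median log2 fold change was 2.06 against 0.09 over all genes. FIT1 (YDR534C) had 137 and 138 normalized CPM in manganese, against 2.48 and 7.87 in control medium. FIT1 and FIT3 encode cell wall mannoproteins that hold siderophore-bound iron, and FIT1 was 25.9-fold higher (log2 fold change 4.69, SE 0.43, edgeR adjusted p = 1.67e-07). ARN2 (YHL047C) had 421 and 457 normalized CPM in manganese, against 11.8 and 31.5 in control medium. ARN2, a siderophore transporter, rose as well (log2 fold change 4.33), although its control libraries differed from each other 2.67-fold. The genes that fell were CTH1 (log2 fold change -1.11, and -0.64 without control replicate 1, which ended the call) and ATX1 (log2 fold change -2.45), a copper chaperone that delivers copper to the iron oxidase pathway. With scaling to the library total, 26 of the 29 were called up and none down, against 63.7% and 10.5% of all genes there. CTH1 turned to 0.42 on that scale. With the trend on coding length removed, 22 were called up and 2, CTH1 and VHT1, down, and ATX1 turned to 1.29.

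Among the 13 genes of manganese transport and chelation, 5 rose and 2, GDT1 and PHO84, fell. The share of rises lay above the 24.7% of all genes and that of falls below 24.0%. PHO84 is described with the phosphate genes below. The gene with the largest rise was MNC1, which encodes a small cysteine-rich membrane-associated protein. MNC1 (YBR056W-A) had 113 and 117 normalized CPM in manganese, against 23.5 and 22.5 in control medium. Its coding length is 201 bp, and its log2 fold change of 2.32 became 6.25 with the length trend removed. With reads of both strands counted together it was 1.15 and not called. SMF3 (YLR034C) had 225 and 247 normalized CPM in manganese, against 53.9 and 51.7 in control medium. SMF3, the Nramp transporter of the vacuole membrane, rose 4.47-fold. The uptake transporters SMF1 (log2 fold change 0.96) and SMF2 (log2 fold change 1.34) lay on either side of the limit of 1 (without control replicate 1 SMF2 was at 0.97), and so did TRE1 (log2 fold change 0.68) and TRE2 (log2 fold change 1.36), whose products send Smf proteins to the vacuole. Their partner BSD2 was at log2 fold change 0.94. PMR1, the manganese and calcium pump of the Golgi, rose (log2 fold change 1.27), while GDT1, a Golgi manganese and calcium exchanger, fell (log2 fold change -1.62, and -0.13 with the library total). The vacuolar importer CCC1 (log2 fold change -0.09) and the ATPases YPK9 (log2 fold change 0.83) and SPF1 (log2 fold change 0.42) were not called. Near the limit, leaving out 1 library moved SMF1 up to 1.03, BSD2 to 1.16 and YPK9 to 1.08, each then called. With the length trend removed only MNC1 and SMF3 stayed called up among these 13. With the library total 11 were called up and none down, against 63.7% and 10.5% of all genes on that scale. PMC1 (YGL006W) had 734 and 779.7 normalized CPM in manganese, against 51.4 and 49.4 in control medium. PMC1, the calcium pump of the vacuole, which is not in this list, rose 15.0-fold. Of 20 zinc and copper transport genes 6 were up, nearer to the background of 24.7%. In this group 1 gene, IZH4 (log2 fold change -1.50), was down, below the 24.0% of all genes. Those that rose included the uptake transporter ZRT1 (log2 fold change 2.35), the zinc-responsive activator ZAP1 (log2 fold change 2.22) and YKE4 (log2 fold change 3.31).

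Phosphate genes moved in both directions. Of 20 targets of Pho4 and phosphate transporters, 12 fell and 2 rose, against backgrounds of 24.0% and 24.7%. This count depended on the scale, since with scaling to the library total 5 were called down and 7 up. The median log2 fold change of the group was then 0.35, against -1.13 on the TMM scale. Over all genes the library total scale gave 10.5% down and 63.7% up, with a median of 1.57. PHO84 (YML123C) had 152 and 180.2 normalized CPM in manganese, against 722 and 906 in control medium. PHO84, which imports phosphate with high affinity, was 4.90-fold lower (log2 fold change -2.29, SE 0.23, edgeR adjusted p = 4.87e-07), a call that the library total scale ended at -0.83. GDE1 (YPL110C) had 247 and 267 normalized CPM in manganese, against 29.1 and 13.5 in control medium. GDE1 releases phosphate compounds from glycerophosphocholine and was 12.2-fold higher. PHO89 (YBR296C) had 107 and 113 normalized CPM in manganese, against 14.2 and 5.06 in control medium. PHO89, the sodium-coupled phosphate importer, was 11.5-fold higher. Both rose on the TMM, library total and length-corrected scales alike, and SPL2, PHM6 and VTC1 fell on all of them.

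Of the 8 genes that make or cut polyphosphate, 3 fell and none rose, against 24.0% and 24.7% of all genes. VTC1 (YER072W) had 85.3 and 89.0 normalized CPM in manganese, against 4135 and 3648 in control medium. VTC1, a membrane subunit of the polymerase, was 44.6-fold lower (log2 fold change -5.48, SE 0.24, edgeR adjusted p = 8.40e-10). VTC2 (YFL004W) had 52.7 and 82.8 normalized CPM in manganese, against 154 and 253 in control medium. VTC3 (YPL019C) had 92.3 and 105 normalized CPM in manganese, against 214 and 234 in control medium. These subunits were lower by 3.01-fold and 2.27-fold. The catalytic subunit VTC4 (log2 fold change -0.97) and VTC5 (log2 fold change -0.78) did not reach the limit, although VTC4 was called down with DESeq2 (-1.02) and without control replicate 1 (-1.25). The remaining polyphosphatases PPX1 (log2 fold change -0.06) and PPN2 (log2 fold change 0.00) were close to 0 and were not called. DDP1 (YOR163W) had 41.1 and 44.2 normalized CPM in manganese, against 99.7 and 70.8 in control medium. DDP1, a pyrophosphatase that also cuts polyphosphate, lay just short of the limit and was past it without either control replicate 2 or manganese replicate 2, at -1.22 and -1.03. With scaling to the library total VTC1 stayed the only gene of this list called down, VTC2 was at -0.14 and VTC3 turned to 0.30. PPX1 (1.43) and PPN2 (1.50) were called up on that scale, where the median of all genes was 1.57. After removal of the length trend all 5 VTC genes were called down.

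Genes of non-fermentable carbon use rose. Of 19 gluconeogenesis and glyoxylate cycle genes, 12 rose and none fell, against 24.7% and 24.0% of all genes. The other counts of this paragraph are read against the same shares. With the length trend removed 11 of the 19 were called up and none down, against 23.0% and 18.0% of all genes. CAT8, which activates gluconeogenic genes, is one of them. CAT8 (YMR280C) had 98.5 and 96.5 normalized CPM in manganese, against 2.48 and 2.25 in control medium. JEN1 (YKL217W) had 107 and 127 normalized CPM in manganese, against 5.58 and 6.18 in control medium. CAT8 and the lactate transporter JEN1 were 40.7-fold and 19.7-fold higher. Of 24 genes of peroxisomal fatty acid oxidation, 13 rose and 2, ANT1 and PEX21, fell, and the fatty acid-responsive activators PIP2 (log2 fold change 3.11) and OAF1 (log2 fold change 2.50) were among those that rose. In the tricarboxylic acid cycle 8 of 19 rose, with CIT1, the citrate synthase, at log2 fold change 2.70, and 1 fell, SDH3 (log2 fold change -2.21). Of 15 hexose transport and phosphorylation genes 7 rose, among them the high-affinity transporter HXT2 (log2 fold change 3.93) and the glucokinase GLK1 (log2 fold change 3.06), and HXT4 fell (log2 fold change -2.30). After removal of the length trend 5 hexose genes were called up and 5 down, 8 of the peroxisomal genes were called up and 2 down, and 6 of the tricarboxylic acid cycle genes up and 2 down. HXT2 (YMR011W) had 1165 and 1319 normalized CPM in manganese, against 77.4 and 84.8 in control medium. GLK1 overlaps the open reading frame YCL042W on the same strand, and reads that fit both were left uncounted.

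The respiratory chain did not follow these genes on the TMM scale. Of its 40 genes 29 fell and 4 rose, against 24.0% and 24.7% of all genes. CYC1 (YJR048W) had 27.8 and 37.4 normalized CPM in manganese, against 905 and 891 in control medium. Cytochrome c, which CYC1 encodes, thus stood 27.5-fold lower in transcript. The external NADH dehydrogenase NDE2 rose (log2 fold change 3.41), as did NDE1, NDI1 and COR1. On the library total scale 21 were called down and 11 up, against 10.5% and 63.7% of all genes there. The median coding length of this group was 387 bp, and after removal of the length trend 2 were called down and 5 up. The fall of the group thus appeared on the TMM and library total scales but not with the length trend removed. Mitochondrial ribosomal proteins fell in 62 of 74, with MRPL37 at log2 fold change -5.06, and in 55 of 74 with the length trend removed. On the library total scale 33 of them were called down and 4 up, against the same 10.5% and 63.7%.

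Storage carbohydrate and stationary phase genes rose. Of 22 trehalose and glycogen genes 14 rose and none fell, against 24.7% and 24.0% of all genes. After removal of the length trend 10 were called up and 1 down, against 23.0% and 18.0%. SGA1 (YIL099W) had 265 and 226 normalized CPM in manganese, against 5.58 and 2.81 in control medium. SGA1 is a glucoamylase that is otherwise known from sporulating cells. GIP2 (YER054C) had 81.0 and 91.2 normalized CPM in manganese, against 4.96 and 2.81 in control medium. GIP2 encodes a subunit that directs a phosphatase to glycogen synthase, and GDB1 the debranching enzyme (log2 fold change 3.32). Of 28 stationary phase genes and hydrophilins 20 rose and 1, NOP6, fell, with a median log2 fold change of 2.45. DDR2 (YOL052C-A) had 199 and 219 normalized CPM in manganese, against 11.2 and 12.9 in control medium. SPG4 (YMR107W) had 86.4 and 121 normalized CPM in manganese, against 8.67 and 6.74 in control medium. These short genes, DDR2 (log2 fold change 4.11, SE 0.24, edgeR adjusted p = 2.07e-09) and SPG4 (log2 fold change 3.75, SE 0.42, edgeR adjusted p = 1.33e-06), rose although 70.5% of the shortest quintile of genes fell. DDR48 rose as well (log2 fold change 3.55). In the group of protein kinase A, Rim15 and Msn2/4 signalling 11 of 29 rose and 3 fell, against 24.7% and 24.0% of all genes. The kinase YAK1 (log2 fold change 2.56), which overlaps YJL142C, and MSN2 itself (log2 fold change 2.34) were among those that rose. With the length trend removed 10 of this group were called up and 1 down, at a median log2 fold change of 0.11.

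Chaperones of the cytosol and the endoplasmic reticulum rose in part. Of 30 heat shock proteins and chaperones 14 rose and 3, HSP10, SNL1 and SSB1, fell, against 24.7% and 24.0% of all genes. HSP30 (YCR021C) had 413 and 473 normalized CPM in manganese, against 16.1 and 21.4 in control medium. SSA4 (YER103W) had 204 and 187 normalized CPM in manganese, against 12.4 and 5.06 in control medium. SSA3 (YBL075C) had 364 and 337 normalized CPM in manganese, against 18.6 and 14.0 in control medium. HSP30 restrains the plasma membrane proton pump and SSA3 and SSA4 are stress-induced Hsp70 proteins of similar sequence, whose shared reads were left out, and they rose 23.5-fold, 21.5-fold and 22.6-fold. HSP10, the mitochondrial co-chaperonin, was lower (log2 fold change -4.31). Of 24 genes of the unfolded protein response and folding in the endoplasmic reticulum 12 rose and 3, CPR5 (log2 fold change -2.06), FPR2 and OST1, fell. KAR2 (YJL034W) had 3606 and 3905 normalized CPM in manganese, against 209 and 240.5 in control medium. KAR2 encodes the main Hsp70 of this compartment and rose 16.7-fold (log2 fold change 4.06, SE 0.24, edgeR adjusted p = 2.78e-09). ERO1 (YML130C) had 1372 and 1482 normalized CPM in manganese, against 102 and 133 in control medium. ERO1, the oxidase that forms disulfide bonds there, rose 12.1-fold, and HAC1, the transcription factor of this response, rose as well (log2 fold change 3.24). Splicing of HAC1 mRNA, which controls its translation, was not measured by these counts.

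Of 20 inositol and phospholipid genes 1 fell, below the 24.0% of all genes. Those that rose, 5 with INO1, were near the background share of 24.7%. ITR1, the inositol importer (log2 fold change 2.36), and OPI3, a phospholipid methyltransferase (log2 fold change 1.66), were among them with INO2 and CKI1, and PIS1, which joins inositol to a lipid, fell (log2 fold change -1.48).

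Many cell wall synthesis genes rose, while a few wall mannoproteins with high counts fell. Of 41 genes of glucan and chitin enzymes and the integrity pathway 26 rose and 6 fell, against 24.7% and 24.0% of all genes. GSC2 (YGR032W) had 3069.9 and 3283 normalized CPM in manganese, against 58.2 and 87.1 in control medium. GSC2 is the stress-induced catalytic subunit of glucan synthase and was 43.6-fold higher (log2 fold change 5.45, SE 0.27, edgeR adjusted p = 1.14e-09). CHS1 (YNL192W) had 1334 and 1478 normalized CPM in manganese, against 134 and 166 in control medium. CHS1, the repair chitin synthase, rose 9.38-fold. FKS3 rose as well (log2 fold change 3.21), but with reads of both strands counted together it was at 0.07 and not called. DSE2, a glucanase made in daughter cells for separation, was among the genes that fell (log2 fold change -3.60). Of 28 wall mannoproteins 13 rose and 3, CWP2, CCW12 and DAN1, fell. PIR3 (YKL163W) had 1004 and 892 normalized CPM in manganese, against 24.2 and 13.5 in control medium. CCW12 (YLR110C) had 2293 and 2092 normalized CPM in manganese, against 47529 and 39656 in control medium. CWP2 (YKL096W-A) had 1637 and 1008 normalized CPM in manganese, against 41369 and 23657 in control medium. PIR3, which encodes a protein bound to wall glucan, rose 50.6-fold, while CCW12 and CWP2, which encode major mannoproteins of growing cells, were 19.9-fold and 24.6-fold lower.

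Vacuolar functions split. The counts of this paragraph are read against 24.7% up and 24.0% down among all genes. Of 39 autophagy genes and vacuolar proteases 17 rose, led by the protease PRB1. PRB1 (YEL060C) had 2436 and 2057 normalized CPM in manganese, against 91.1 and 55.6 in control medium. The vacuolar lipase ATG15 was at log2 fold change 3.39, and the 5 genes that fell were ATG10, ATG27, ATG31, LAP3 and PBI2. Of 6 ABCC transporters 4 rose and none fell. NFT1 (YKR103W) had 221 and 283 normalized CPM in manganese, against 15.5 and 12.9 in control medium. VMR1 (YHL035C) had 325 and 329 normalized CPM in manganese, against 29.1 and 23.6 in control medium. NFT1 and VMR1 rose 17.7-fold and 12.4-fold, and YOR1, which acts at the plasma membrane, 3.97-fold. YCF1, which moves glutathione conjugates into the vacuole, was the other gene that rose. The proton pump of the vacuole went the other way, with 13 of 18 subunit and assembly genes down. VMA7 (YGR020C) had 111 and 105 normalized CPM in manganese, against 3677 and 2892 in control medium. VMA7 was 30.3-fold lower. Its only member that rose was STV1 (log2 fold change 1.50), the subunit isoform of the Golgi and endosomes.

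Genes of nitrogen use moved in both directions. Of 38 genes under nitrogen catabolite repression 12 rose and 5 fell, against 24.7% and 24.0% of all genes. PUT1 (YLR142W) had 1104 and 1049 normalized CPM in manganese, against 32.2 and 25.3 in control medium. PUT1, the proline oxidase, rose 37.5-fold, and CAR2 of arginine breakdown was at log2 fold change 3.51. The ammonium transporter MEP2 (log2 fold change -2.94) and the general amino acid permease GAP1 (log2 fold change -2.50) fell, with OPT2, PTR2 and DAL3. Of 19 purine synthesis genes 13 fell and 1 rose, ADE16 (log2 fold change 1.07, but 0.91 without control replicate 1 and 0.97 without manganese replicate 2), while its paralog ADE17 fell. ADE17 (YMR120C) had 73.2 and 64.1 normalized CPM in manganese, against 734 and 985 in control medium. ADE13 was at log2 fold change -3.31. With scaling to the library total 3 of the purine genes were called down and 5 up, and with the length trend removed 13 were down and none up. Of 53 amino acid synthesis genes 16 fell and none rose, with SHM2 at log2 fold change -2.83. On the library total scale 3 of these were called down and 27 up, and with the length trend removed 22 were down and none up. Of all genes, 10.5% were called down and 63.7% up on the library total scale, and 18.0% and 23.0% with the length trend removed.

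All 137 cytosolic ribosomal protein genes fell, with a median log2 fold change of -4.38, the lowest of the 41 groups, and 115 of them kept this call on the library total scale. After removal of the length trend, 115 were down and 4 up. RPS22A (YJL190C) had 352 and 427 normalized CPM in manganese, against 28577 and 17528 in control medium. RPL40B (YKR094C) had 187 and 215 normalized CPM in manganese, against 13483 and 8074 in control medium. RPS22A and RPL40B differed 1.63-fold and 1.67-fold between the 2 control libraries, and 59.2-fold and 53.6-fold between the media. Of 71 small nucleolar and nuclear RNAs 60 fell and none rose, 48 of them also under the library total. snR63 had 2.72 and 6.86 normalized CPM in manganese, against 214 and 290.5 in control medium. These RNAs largely lack a poly(A) tail and guide the modification of other RNAs or take part in splicing. How far the library preparation captured them was not measured, so their counts need not follow their abundance. Of 98 nucleolar assembly factors only 22 fell and 1, DBP7, rose. The falls were close to the background of 24.0%, and the rises lay below that of 24.7%. Under the library total 2 were called down and 55 up, against 10.5% and 63.7% of all genes on that scale. Of 11 histone genes 9 fell, 7 of them also when scaled to the total, and 4 when the length trend was taken out.

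Antioxidant enzymes included large changes in both directions. Among 35 genes 8 rose and 16 fell, against 24.7% and 24.0% of all genes. But with the length trend removed 9 were called up and 4 down, against 23.0% and 18.0% of all genes there. On the library total scale 15 were called up and 6 down, against 63.7% and 10.5%. GTT1 (YIR038C) had 439.5 and 476 normalized CPM in manganese, against 45.8 and 28.1 in control medium. GTT1, a glutathione transferase, rose 12.4-fold. TRX1 (YLR043C) had 118 and 130.0 normalized CPM in manganese, against 7423 and 4324 in control medium. TRX1, a cytosolic thioredoxin, was 47.4-fold lower and was called down on each of the 3 scales. Its paralog TRX2 fell as well, but was not called with the length trend removed.

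The remaining groups are given here beside the background of 24.7% up and 24.0% down. Of 8 phosphate signalling genes 1 rose and none fell. Of 5 small membrane proteins of the CYSTM family, which holds MNC1, 2 rose and 2 fell. Of 34 proteasome genes 2 rose and 4 fell, and of 26 ergosterol synthesis genes 3 rose and 3 fell. Glycolysis and fermentation had 7 of 25 up and 2 down, and cyclins and cell cycle entry 6 of 21 up and 3 down. Among 31 DNA replication genes 8 rose, including RNR3, and 5, RFA3, RFC5, PSF1, PSF2 and PSF3, fell. Sulfate assimilation and methionine genes rose in 12 of 33 and fell in 7. Ion transport genes for protons, sodium, calcium and potassium rose in 10 of 25 and fell in 3. Translation factors fell in 15 of 38 and rose in 1, and subunits of RNA polymerases I and III fell in 7 of 19 and 1, RET1, rose. The counts of these groups depended on the scale. On the library total scale 25 proteasome and 18 ergosterol genes were called up and 1 of each down. There 20 translation factors were called up and 6 down, and 8 polymerase subunits up and 4 down. These counts are read against 63.7% up and 10.5% down among all genes on that scale.

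Coding length went with the change across all genes. Of the 1111 genes in the shortest quintile, up to 648 bp, 783 (70.5%) fell and 88 rose, while of the 1106 genes in the longest quintile, from 2130 bp, 34 fell and 439 rose. The shortest quintile took 16.5% and 18.8% of the counts of genes with a known length in manganese, against 78.2% and 71.8% in control medium. Without ribosomal protein genes 637 of 964 genes of the shortest quintile still fell. Removing the length trend left 951 of 1408 genes called up and 670 of 1276 called down. The part of length in each result was not tested. Genes within 20 kb of a chromosome end differed from the rest as well. Of 127 of these 58 rose and 11 fell, against 1352 and 1265 of 5412 genes farther in, and with the length trend removed 61 were called up and 6 down.

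**Figure D4:**
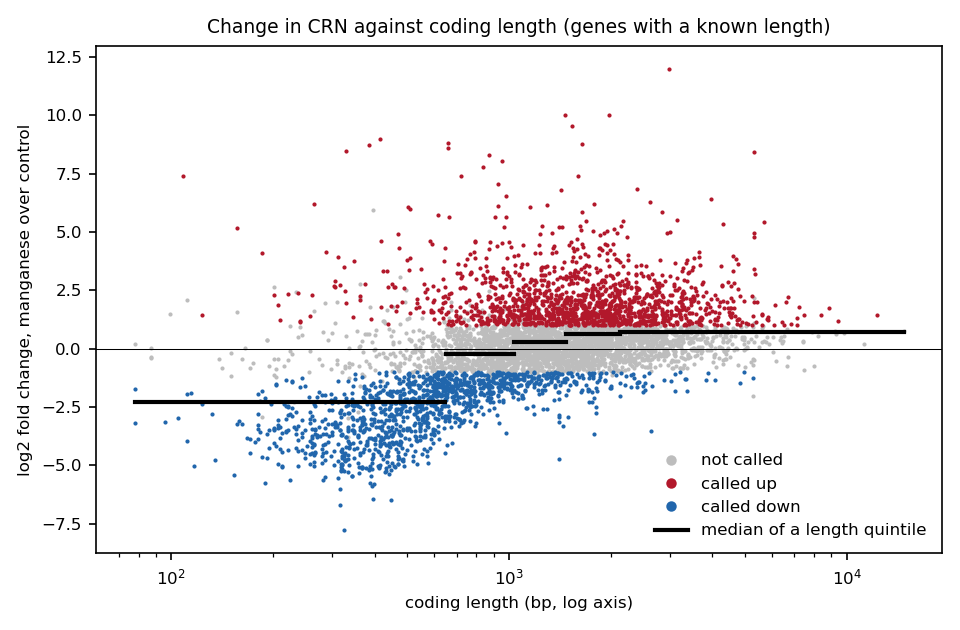
Log2 fold change (manganese over control in CRN) against coding length in bp on a log axis, with each point a gene, red called up, blue called down and grey not called. Black lines give the median of each length quintile, which lay at -2.29 for the shortest and 0.73 for the longest genes.

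The response of CRN was set beside that of CRN/PPN1. In manganese the cultures grew for 40 h and 16 h, so that strain and growth time cannot be told apart there, while the controls of both strains grew for 12 h. The difference of the log2 fold changes between the strains, CRN minus CRN/PPN1, was called higher for 11.6% of the 5778 genes and lower for 15.0%. In CRN/PPN1 itself 10.1% of the genes were called up and 15.1% down. Since the genes below were named for a large change in CRN, a difference in the same direction is favoured by that choice. Among 29 iron uptake genes 15 were higher in CRN in this test and 1 was lower, among 22 trehalose and glycogen genes 13 and none, among 28 stationary phase genes 15 and 1, among 19 gluconeogenesis genes 9 and none, and among 137 cytosolic ribosomal protein genes none and 136. NFT1 had a log2 fold change of 4.15 (SE 0.25) in CRN and -0.07 (SE 0.25) in CRN/PPN1, a difference of 4.21 with an edgeR adjusted p of 7.39e-06. CAT8 had a log2 fold change of 5.35 (SE 0.37) in CRN and 0.44 (SE 0.29) in CRN/PPN1, a difference of 4.91 with an edgeR adjusted p of 2.11e-05. DDR2 had a log2 fold change of 4.11 (SE 0.24) in CRN and 0.53 (SE 0.18) in CRN/PPN1, a difference of 3.58 with an edgeR adjusted p of 7.39e-06. These 3 genes were not called in CRN/PPN1. SMF3 was not called there either, at log2 fold change 2.16 in CRN and 0.04 in CRN/PPN1. The medium in which the strains differed was not the same for these genes. In the manganese libraries NFT1 had 221 and 283 normalized CPM in CRN, against 16.8 and 17.8 in CRN/PPN1, while the controls had 15.5 and 12.9 in CRN and 18.4 and 17.8 in CRN/PPN1. For DDR2 the manganese libraries had 199 and 219 normalized CPM in CRN, against 234 and 233 in CRN/PPN1, while the controls had 11.2 and 12.9 in CRN and 148 and 174 in CRN/PPN1. The strains thus differed for NFT1 in manganese, and for DDR2 mainly in the control medium, where both had grown for 12 h. PHO84 had 722 and 906 normalized CPM in the CRN controls and 12.6 and 21.3 in the CRN/PPN1 controls, and SPL2 had 1477 and 812 in the CRN controls and 28.6 and 33.5 in the CRN/PPN1 controls. Among the 77 named genes with a called difference and no group at the floor of 3 counts, the mean levels of the strains differed by the larger factor in manganese for 53 and in control medium for 24. ITR1 and PPN2 are examples of named genes for which the difference was not called. ITR1 had a log2 fold change of 2.36 (SE 0.21) in CRN and 2.04 (SE 0.21) in CRN/PPN1, a difference of 0.33 with an edgeR adjusted p of 0.413 and a 95% interval from -0.28 to 0.93. PPN2 had a log2 fold change of 0.00 (SE 0.18) in CRN and 0.05 (SE 0.18) in CRN/PPN1, a difference of -0.04 with an edgeR adjusted p of 0.916 and a 95% interval from -0.59 to 0.50. No difference is given for PHO89, which had 1 count in each CRN/PPN1 control library.

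**Figure D5:**
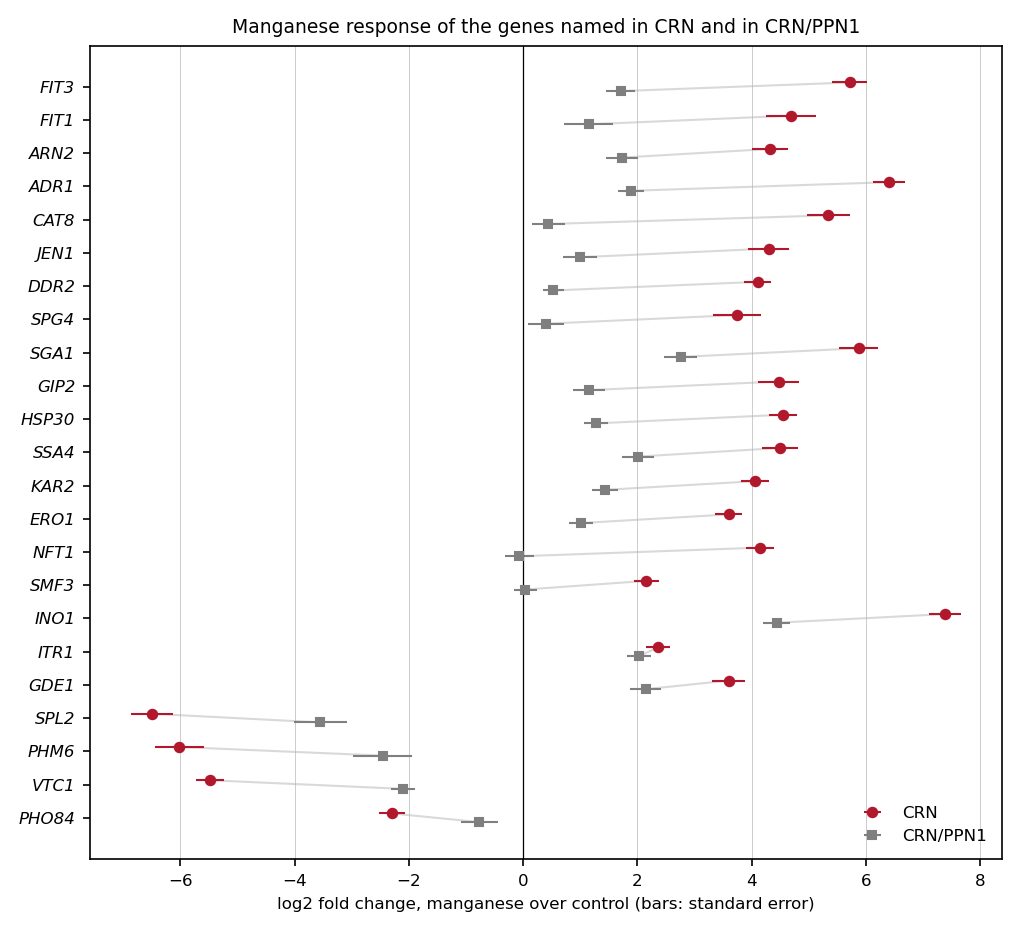
Log2 fold change in manganese over control for 23 genes in CRN (red circles) and in CRN/PPN1 (grey squares), with bars for the standard error of the fit over 2 libraries a group. Most genes lie farther from 0 in CRN, such as NFT1 at log2 fold change 4.15 against -0.07, while ITR1 lies at log2 fold change 2.36 against 2.04.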

How the data were processed

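Per the study's methods, total RNA was extracted from the yeast samples and libraries were built with a TruSeq RNA Sample Prep kit. The authors deposited whole-number counts of reads per gene for each of the 8 libraries, for both strands together and for each strand. Per the labels, reads were trimmed with Trimmomatic 0.36 and aligned with STAR 2.5.3a, and only reads with a unique place were counted. The column of the strand that held 91% to 93% of the stranded counts was used. Rows for unmapped, multi-mapping or unassigned reads stayed out of library sizes.

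Genes that reached 2 CPM in 4 or more of the 8 libraries were fitted with the quasi-likelihood test of edgeR 4.0.16 (R 4.3.3, TMM scaling, 4 groups, no block), and p-values were adjusted by Benjamini-Hochberg over all 5778 genes. Calls required an adjusted p no larger than 0.05 and a change of 2-fold or more. The biological coefficient of variation was 0.18. Tested on simulated data with 200 genes changed by 2 on the log2 scale among 5745, the fit recovered 97.5% and called 3 unchanged genes. The changed genes were drawn from those with higher counts, with rises and falls equal in number. The simulation therefore did not test the choice of scale. Total gene counts of 2737494 to 3579469 per library put a floor of 3 counts per library at 0.549 normalized CPM in manganese and 1.77 in control medium, for counting error only.

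The genes named were, per direction, the 8 with the largest change among those averaging 100 or more normalized counts with over 3 counts in all 4 libraries, the 4 with the largest bound, and up to 3 called members per direction of each of 41 lists. All members of the manganese transport and polyphosphate lists could be named. Of these, 106 are given with values, and list members named without values show which genes a count holds. The members and lists were chosen with earlier results of these data known, and the Aft motif was added after the data had been seen. A gene can belong to several lists, as FIT1, FIT3 and VTC1 do. Gene names, coordinates and 500-base windows came from RefSeq R64, to which 6048 of 7126 IDs matched. In bulk RNA, fewer cells of a type and less RNA per cell cannot be told apart. Alternatives were library total, upper quartile and length-corrected scaling, other filters, DESeq2 1.42.0, a replicate block and leaving out each library.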

Additional observations from a re-analysis of the deposited data

Results flagged for a closer look

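A difference of the manganese response between the strains, CRN minus CRN/PPN1, was called by the edgeR interaction test (Benjamini-Hochberg adjusted p at most 0.05 and a difference of at least 1 on the log2 scale) for 81 of the 106 genes given with values, against 11.6% of all genes tested for higher and 15.0% for lower values in CRN. Most of these genes were named for a large change in CRN, which is 1 side of this difference, so their number is no result about them. In the manganese libraries strain and growth time, 40 h in CRN and 16 h in CRN/PPN1, cannot be told apart. The controls of both strains grew for 12 h, and of 77 of these genes with no group at the floor of 3 counts, 24 differed between the strains by the larger factor in control medium and 53 in manganese.

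The log2 fold change was higher in CRN than in CRN/PPN1, with this difference in brackets, in PHM7 (8.76), MCH2 (5.16), CAT8 (4.91), YBR284W (4.82), ADR1 (4.52), SPS100 (4.47), ULI1 (4.31), EMA35 (4.29) and NFT1 (4.21). Next in size came FIT3 (4.01), DDR2 (3.58), FIT1 (3.54), SPG4 (3.35), GIP2 (3.32), JEN1 (3.31), HSP30 (3.28), SGA1 (3.12) and INO1 (2.94). The following differences were those of KAR2 (2.63), ARN2 (2.59), ERO1 (2.58), RNR3 (2.51), SSA4 (2.49), PIP2 (2.41), GSC2 (2.38), PRB1 (2.34) and PUT1 (2.33). Somewhat smaller ones belonged to CAR2 (2.29), DDR48 (2.20), HXT5 (2.19), PMC1 (2.17), SMF3 (2.12), FKS3 (2.10), PIR3 (2.09), VMR1 (1.88) and HXT2 (1.88). In the same direction lay GLK1 (1.77), CIT1 (1.66), GDB1 (1.65), YAK1 (1.64), HAC1 (1.55), BSD2 (1.54), YKE4 (1.48), GDE1 (1.46) and OAF1 (1.42). The smallest in this direction were MSN2 (1.38), SSA3 (1.32), CHS1 (1.28), GTT1 (1.25), ZAP1 (1.23), YOR1 (1.07) and SMF1 (1.04). For EMA35, PHM7, SPS100 and HXT5 a group at the floor of 3 counts makes the size depend on the prior count of the fit.

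The log2 fold change was lower in CRN than in CRN/PPN1 in snR63 (-4.56), RPS22A (-3.67), PHM6 (-3.56), HTB2 (-3.47), RPL40B (-3.45), VTC1 (-3.37), TRX1 (-3.28), snR10 (-2.99) and SPL2 (-2.94). Smaller differences toward lower values were found in HTA2 (-2.93), MRPL37 (-2.81), VMA7 (-2.64), CCW12 (-2.42), CWP2 (-2.36), DSE2 (-2.31), HSP10 (-2.29), ADE17 (-1.91) and ATX1 (-1.86). Then came CYC1 (-1.74), ADE13 (-1.73), GDT1 (-1.71), MEP2 (-1.71), HXT4 (-1.61), PHO84 (-1.53), GAP1 (-1.50), VTC4 (-1.39) and CPR5 (-1.33). The smallest toward lower values were PIS1 (-1.12) and SHM2 (-1.06).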

How the results depend on the processing

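With scaling to the library total, 3681 genes were called up in manganese and 609 down, against 1426 and 1389 on the TMM scale, so the balance of rises and falls depends on the scale. The share of calls that were up was 85.8% on that scale, 56.0% with the length trend removed and 50.7% in the main test. The difference between the strains was then called higher in CRN for 2149 genes and lower for 366, and with the length trend removed it was called lower for 567. CTH1 turned to a log2 fold change of 0.42 and VTC3 to 0.30 with the library total, and ATX1 turned to 1.29 with the length trend removed. The falls of PIS1, IZH4, GDT1, VTC2, CPR5, SDH3, PHO84, HXT4 and ATX1 were not called with the library total, and the changes of PIS1, SDH3, ADE16, PMR1, TRE2, STV1 and SMF2 were not called with the length trend removed. Leaving out each CRN library in turn gave 1346 to 1388 genes up, 1340 to 1387 down, 547 to 614 with a higher difference and 786 to 875 with a lower one. DESeq2 called 1347 up and 1452 down, and upper quartile scaling 1684 and 1252. The replicate block gave 1434 up, 1391 down and differences of 735 higher and 903 lower, and changed the call of none of the 106 genes given with values. The replicate numbers were not treated as pairs, since neither labels nor methods tie them across groups and the deviations of same-numbered libraries correlated at 0.036 between CRN in manganese and CRN in control medium and at 0.11 to 0.22 between the other pairs of groups. Low counts limit the genes at the floor to bounds. The cause of each change was not tested.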
